A study of Drosophila melanogaster with 2 samples.

Results

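The mitochondrial ribosomal protein genes of Drosophila melanogaster were described in a ChIP-seq data set for the NF-kB family transcription factor Dorsal (dl). Mitochondrial ribosomes translate the few messages of the mitochondrial genome, which encode core subunits of the respiratory chain. Their RNA parts come from the mitochondrial genome, whereas their proteins are encoded in the nucleus, made in the cytosol and imported. The large subunit forms peptide bonds and the small subunit decodes the message, and each combines proteins inherited from the bacterial ribosome with proteins specific to mitochondria. Members were all protein-coding genes on the chromosome arms whose symbol begins with mRpL (large subunit) or mRpS (small subunit). There were 73 such genes among 13968 protein-coding genes on the arms, 47 of the large and 26 of the small subunit. The rule used symbols alone and no measured value, although this gene class was picked with earlier results of these data known.

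Chromatin came from whole larvae of the third instar in the wandering phase, with males and females pooled, so the regions are a mixture over all larval tissues and cannot be assigned to a cell type. All larvae came from a transgenic line that stably carries the dl-RC form with GFP at its C-terminus, and the precipitation was directed at GFP according to the sample descriptions, although a label field names the antibody as dl. There was 1 group of 2 biological replicates, numbered 3 and 1 in the labels, a control experiment is named there, and there was no second condition, so no comparison between groups of larvae exists and no p-value is given. The deposited dm6 region lists comprised 2718 peaks that passed an irreproducible discovery rate threshold, 29999 candidate regions from the pooled replicates, and candidate lists A and B from 1 replicate each, which could not be linked to the replicate numbers. Candidates hold peaks and background together, and the thresholded peaks were the 2718 pooled candidates of highest signal. Signal is the value that the authors deposited for each region, and it is not read here as a fold enrichment over control. It is used here within a list only. It ran from 73.3 upward in the thresholded list, with a median of 119, and from 20.8 upward in the pooled list, with a median of 29.2. Read depth is unknown because the lists hold no read counts, and the exact Clopper-Pearson 95% intervals below cover the counting of genes or regions only.

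A gene was given a region when the region's summit, its point of highest signal, lay within 1000 bp of any annotated transcription start site. Offsets are signed by the strand of the gene, with negative values upstream. Sequence stretches named in the results are shown here. Sequence is given for 1 of the peaks near a member, that upstream of mRpL11, at chr3R:14511375-14511618. It held 3 matches to the E-box letters CAGCTG. Those matches lie in 30-base stretches at chr3R:14511451-14511480 and chr3R:14511537-14511566 (dm6, plus strand, E-box in capitals). These stretches were chosen after the values were seen.

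mRpL11 peak, first site: tcacttctCAGCTGgCAGCTGatttcaatt

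mRpL11 peak, second site: aggcaatgcaaaCAGCTGttggccgcgatg

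The same letters lay just downstream of the start site of several members whose candidates did not pass the threshold. Stretches of 30 bases in the direction of transcription are given for 5 such genes: mRpS21 at chr3R:13381790-13381819 (minus strand), mRpS6 at chr3L:4364568-4364597 (plus), mRpL17 at chr3L:264780-264809 (plus), mRpS18B at chr2L:20097216-20097245 (minus) and mRpL2 at chr3L:11120845-11120874 (plus). The E-box began at position 2, 30, 13, 20 and 10 in that order, counted with the start site as position 0. These genes were chosen after their values were seen. mRpL53, with a higher candidate signal than these, also had a match, at position 16, and mRpS6 had another at position 14, and neither is printed. Among the 5 printed stretches, only that of mRpL2 lay inside a pooled candidate region. The letters also lay downstream of the start site of members without a pooled candidate, such as mRpL28 (position 15) and mRpS17 (position 16).

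mRpS21: agtgatattcatCAGCTGtttagcagtaca

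mRpS6: tgttaacactatCAGCTGgtgggtcaacaa

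mRpL17: ataaatggtcgcCAGCTGttcggcgaatgt

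mRpS18B: tgtatcggaaaaCAGCTGatccgccggctc

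mRpL2: aacgccgcgtaaCAGCTGttttcagccgca

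Upstream sequence, without annotated untranslated regions, is also given for 3 genes. The first 2 members on 2L without any pooled candidate were mRpL10, at chr2L:203529-203778 (plus), and mRpL48, at chr2L:1710422-1710461 (plus). The other is mRpL22, at chrX:16783683-16783932 (plus), which had the highest candidate signal of any member that was itself the nearest coding gene. Capitals mark the DNA replication-related element (DRE, TATCGATA) in mRpL10 and mRpL22 and the core of promoter Motif 1 (GGTCACAC, here on the opposite strand) in mRpL48.

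mRpL10: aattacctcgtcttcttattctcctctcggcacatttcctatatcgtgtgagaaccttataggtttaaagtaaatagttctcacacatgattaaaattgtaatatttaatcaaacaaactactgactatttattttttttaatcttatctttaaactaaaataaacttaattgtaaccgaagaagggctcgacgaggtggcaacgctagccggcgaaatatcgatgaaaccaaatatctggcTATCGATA

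mRpL48: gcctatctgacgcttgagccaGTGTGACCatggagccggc

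mRpL22: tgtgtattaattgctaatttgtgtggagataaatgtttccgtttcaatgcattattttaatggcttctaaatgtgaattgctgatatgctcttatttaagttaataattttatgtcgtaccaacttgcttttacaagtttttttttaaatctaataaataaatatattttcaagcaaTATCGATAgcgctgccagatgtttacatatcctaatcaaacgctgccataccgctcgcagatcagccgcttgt

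Thresholded peaks lay near 2 of the 73 mitochondrial ribosomal protein genes, mRpL34 and mRpL11, which is 2.74% (interval 0.334 to 9.55%). Over all protein-coding genes the share was 10.8% (1505 of 13968), a value above the upper bound of the members' interval. This position depends on the setting. With the most upstream start site of each gene only, members stayed at 2 of 73 and all coding genes stood at 8.65%, inside that interval. The share of all coding genes also lay inside the members' interval with a window of 2000 bp, in each replicate list and among genes with a single start site, for which the values are given below. It lay above the members' interval when regions overlapping the window were counted (2 of 73 members, against 11.1%). The same held with windows of 500 bp and 250 bp, peaks of at least median signal and the nearest start site only. Pooled candidates of any signal lay near 25 members, 34.2% (23.5 to 46.3%), against 40.5% of all coding genes (5660 genes), which falls inside the members' interval. Among genes with a candidate, 2 of 25 members (8.00%, 0.984 to 26.0%) also had a thresholded peak, against 26.6% of all coding genes with a candidate. Both peaks belonged to the large subunit. The 26 small-subunit genes had none, a count that allows a share of up to 13.2%.

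**Figure D1:**
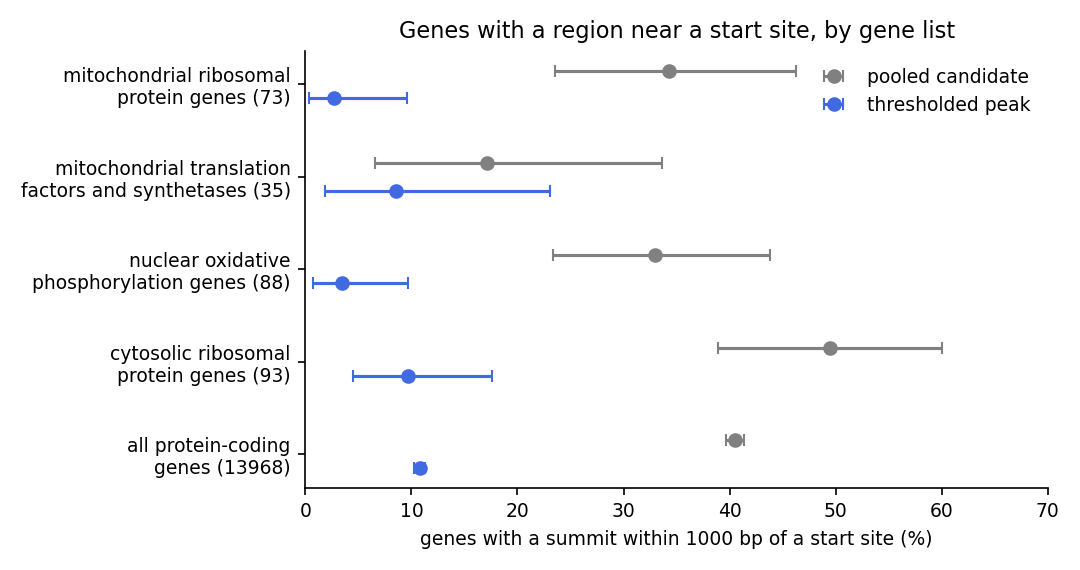
Share of genes (percent, horizontal axis) with a pooled candidate (grey) or a thresholded peak (blue) within 1000 bp of a start site, for 5 gene lists with the number of genes in brackets; bars are exact 95% intervals. The mitochondrial ribosomal genes stand at 2.74% for thresholded peaks and 34.2% for candidates, against 10.8% and 40.5% of all coding genes.

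Other genes of mitochondrial function and the cytosolic ribosome are set beside them as description. Of 88 nuclear genes of oxidative phosphorylation, which encode respiratory chain and ATP synthase subunits, 3 had a thresholded peak (3.41%, 0.709 to 9.64%) and 29 a candidate. Of 93 cytosolic ribosomal protein genes, 9 had a peak (9.68%, 4.52 to 17.6%) and 46 a candidate. Of 35 genes for mitochondrial translation and transcription factors and mitochondrial aminoacyl-tRNA synthetases, 3 had a peak (8.57%, 1.80 to 23.1%) and 6 a candidate (17.1%, 6.56 to 33.6%). That list also holds tko and bonsai, which are mitochondrial ribosomal proteins under other symbols, and the membrane insertase gene OXA1L. The intervals of these lists overlap that of the mitochondrial ribosomal genes, and differences between the lists were not tested.

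mRpL34 encodes a small large-subunit protein of bacterial ancestry. Its peak at chr2R:16098133-16098376 had a signal of 84.6, rank 2198 of 2718, and a −log10 q-value of 2.94. The summit lay 693 bp upstream of the single mRpL34 start site. It lay 309 bp downstream of the start site of Dg, inside the Dg gene. Dg encodes dystroglycan, a receptor for extracellular matrix, and is transcribed in the opposite direction from 384 bp away. In list A the best region near mRpL34 had a signal of 46.1 and rank 1915, and in list B a signal of 41.3 and rank 3730. Both single-replicate summits, at offsets of −695 and −693 bp, lay within a few bases of the pooled one, and the gene was among the 2718 best regions of list A but not of list B.

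mRpL11 encodes a protein that in bacteria sits at the base of the stalk where translation factors bind. Its peak had a signal of 82.2, rank 2293 and a −log10 q-value of 2.96, with the summit 341 bp upstream of the only mRpL11 start site. The nearest coding start site was 37 bp away and belonged to HtrA2, which encodes a serine protease of the mitochondrial intermembrane space. The summit lay upstream of that site but inside the HtrA2 gene. HtrA2 has 2 annotated start sites, and the one closest to mRpL11 lay 126 bp from the mRpL11 start site, on the opposite strand. In list A the best region near mRpL11 had a signal of 26.1 and rank 4760, and in list B a signal of 60.1 and rank 1899. The order of the replicate lists was thus the reverse of that at mRpL34.

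Both thresholded peaks therefore lay nearer to a divergent neighbour than to the mitochondrial ribosomal gene, and when a peak was given to its nearest coding gene only, no member had one. Over all protein-coding genes, 88.3% of pairs of a gene and a thresholded peak (1795 of 2033) had that gene as nearest, and those summits lay a median of 160 bp from the start. At members that median was 517 bp, over 2 peaks. Just outside the window, mRpS16 had a thresholded peak at chr2R:14174698-14174941 with a signal of 116.9 and rank 1398, 1224 bp upstream of its start site and 1127 bp from cg, the gene for the zinc-finger protein combgap. No member had its nearest thresholded summit between 800 and 1000 bp.

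**Figure D2:**
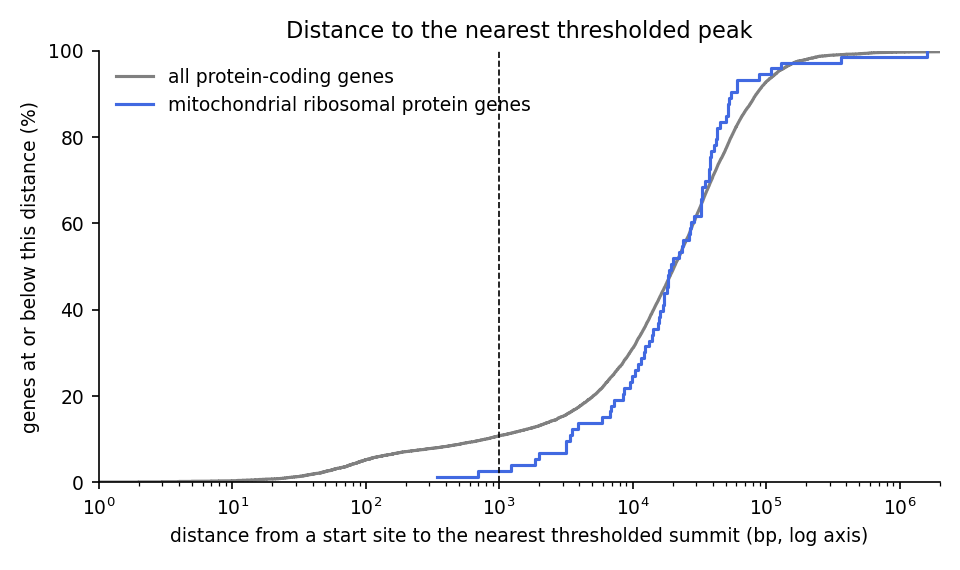
Cumulative share of genes (percent, vertical axis) by distance from a start site to the nearest thresholded summit on the same arm (bp, log axis), for the 73 mitochondrial ribosomal protein genes (blue) and all protein-coding genes (grey); the dashed line marks 1000 bp. The blue curve starts at 341 bp and lies below the grey one at short range, and the medians are 19306 bp and 20584 bp.

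The median distance to the nearest thresholded summit was close to that of other genes, at 19306 bp (quartiles 10413 and 38326 bp), against 20584 bp (7207 and 46003 bp) over all coding genes. Within 5000 bp there was a thresholded summit for 10 of 73 members (13.7%, 6.77 to 23.8%), against 19.8% of all coding genes, and within 2000 bp for 5 (6.85%, 2.26 to 15.3%), against 13.1%. The farthest member was mRpS5 on 3L, 1591738 bp from any thresholded summit. Pooled candidates were farther from members, with the nearest at a median of 4557 bp against 2059 bp for all coding genes. Among genes with a single start site the medians were 3929 and 2847.5 bp. For genes with an opposite-strand start site within 1000 bp upstream they were close, at 3722 and 3817 bp.

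The best candidates of the 25 members had a median signal of 45.3 and ran from 23.2 to 84.6, against a median of 42.6 over the 5660 coding genes with a candidate. Over all genes with a candidate, signals of members were thus centred close to those of other genes. Among genes with a single start site the medians were 46.4 for members and 36.7 for all coding genes. For genes with an opposite-strand start site within 1000 bp upstream they were 46.4 and 46.8. These differences were not tested. At the low end, 3 of 25 members (12.0%, 2.55 to 31.2%) had a best candidate below the median of the pooled list, against 26.0% of coding genes.

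Among members without a thresholded peak, mRpS26 had the highest signal, 71.3 at rank 2828, just below the lowest thresholded value of 73.3. This small-subunit protein is specific to mitochondrial ribosomes, and the summit lay 807 bp upstream, nearer to CG13698 (377 bp). mRpL53, another mitochondria-specific protein, had a signal of 71.1 at rank 2842 with the summit 98 bp upstream, and 72 bp from AGO1, the Argonaute protein of the microRNA pathway. mRpS21 had 68.5 at rank 2993, 800 bp upstream and 213 bp from Droj2, a DnaJ-type co-chaperone gene. These 3 genes were just under the threshold and each had a neighbour closer to the summit.

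mRpS6 had a signal of 59.0 at rank 3812, 517 bp upstream and 59 bp from Cip4, which encodes an F-BAR protein that shapes membranes. mRpL22, whose bacterial counterpart lines the peptide exit tunnel, had 57.7 at rank 3952. Its summit lay 23 bp upstream of its own start site, inside the stretch shown above, while the divergent gene if, for an integrin alpha chain, began 499 bp away. mRpL17 had 51.2 at rank 4833, 338 bp upstream and 61 bp from Tudor-SN, a Tudor-domain nuclease gene. Of these 6 genes only mRpL22 was the nearest coding gene to its own best candidate.

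The remaining 17 members with a candidate had best signals from 50.6 (mRpS18B) down to 23.2 (mRpL20). The member was the nearest coding gene at mRpL4 (46.4, at −184 bp), mRpS25 (45.3, at −13 bp), mRpS11 (38.3, at 444 bp), mRpS7 (25.9, at 57 bp), mRpS5 (25.6, at 861 bp) and mRpL20 (23.2, at −146 bp), and it tied at mRpL13 (42.8, at −163 bp), which shares its start site with CG10602. With mRpL22, this makes 8 of 25 members. At the others the nearest gene was a neighbour, such as FoxK beside mRpL2 (signal 49.6), Taz, for the cardiolipin remodelling enzyme tafazzin, beside mRpL18 (30.6), qless, for an enzyme of coenzyme Q synthesis, beside mRpL32 (29.8), and norpA, for a phospholipase C of phototransduction, beside mRpL33 (33.5).

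**Figure D3:**
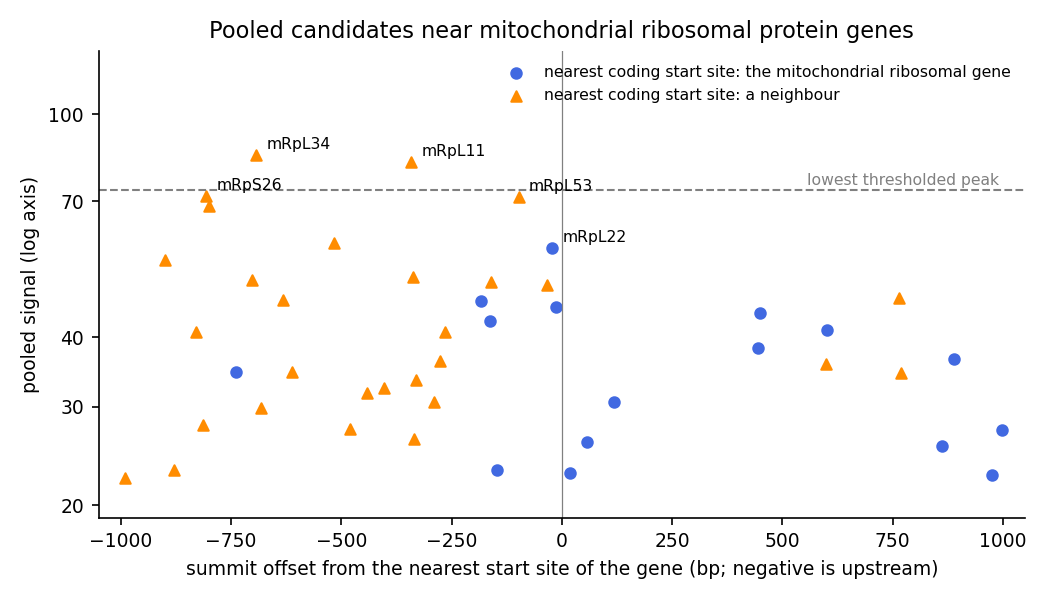
Pooled signal (log axis) against the offset of the summit from the start site (bp) for all 45 pooled candidates near the 25 members; blue circles have the mitochondrial ribosomal gene as nearest coding gene (ties included), orange triangles a neighbour, and the dashed line is the lowest thresholded signal, 73.3. Of the 45 regions 32 lie upstream, and both regions above the line are triangles.

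In all, 45 candidate regions lay near the 25 members, and no region was shared by a pair of members. A single candidate lay near 11 members and 2 or more near 14, with 4 at mRpL53. The summits lay at a median of 480 bp from the member's start site, against 369 bp for pairs of any coding gene and candidate. Upstream summits made up 71.1% (32 of 45) against 60.0%, and 13.3% (6 of 45) lay within 100 bp against 24.2%. The member was the nearest coding gene for 16 of 45 regions (35.6%, 21.9 to 51.2%), against 85.2% over all coding genes. Another coding gene was also within 1000 bp for 41 of 45 (91.1%, 78.8 to 97.5%), against 31.9%. Members more often have an opposite-strand start site within 1000 bp upstream (79.5%, against 35.2% of all coding genes). The part of this spacing in the nearest and shared regions was not tested. A region near 2 start sites cannot be assigned to either gene from these lists.

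Many members begin head to head with a neighbour. A start site on the opposite strand lay within 1000 bp upstream for 58 of 73 members (79.5%, 68.4 to 88.0%), against 35.2% of all coding genes, with a median spacing of 283 bp and 300 bp. All head-to-head coding genes together had a thresholded peak at 9.95%, close to the 10.8% of all coding genes, and the 58 head-to-head members at 3.45% (0.420 to 11.9%). Members were also short, with a median gene length of 909 bp against 2164.5 bp, and 67 of 73 (91.8%) had a single start site against 73.5%. In the cytosolic ribosomal, mitochondrial translation and oxidative phosphorylation lists, 60.2%, 51.4% and 46.6% of genes were head to head. In the same order, median lengths were 1318, 1886 and 1097 bp, and single start sites made up 51.6%, 91.4% and 60.2%. Genes with a single start site had a thresholded peak at 6.17% over all coding genes, and members with a single start site at 2.99% (2 of 67, 0.364 to 10.4%). The interval includes 6.17%. With this restriction the members' share hardly changed from 2.74%, while that of all coding genes was 6.17% and not 10.8%. Candidates lay near 34.3% of members and 33.5% of coding genes in that comparison. The part of gene length, spacing and number of start sites in the count of peaks was not tested beyond these shares.

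The replicate lists were then compared for the members, taking the 2718 regions of highest signal in each. In list A these lay near 3 of 73 members, mRpL34 (rank 1915), mRpL17 (2498) and mRpL2 (2638), or 4.11% (0.856 to 11.5%), against 10.8% of all coding genes. In list B they lay near 5 members, mRpS26 (rank 1190), mRpL11 (1899), mRpS6 (2443), mRpS18B (2570) and mRpS16 (2643), or 6.85% (2.26 to 15.3%), against 11.3%. No member was in both sets, which allows a share of up to 4.93%, against 7.86% of all coding genes. Each of the 8 genes was thus among the best regions of 1 replicate list and not of the other. The ranks compare genes, because the best region of a gene could differ between the lists. Summits in lists A and B lay at −816 and −372 bp for mRpL17, −694 and −45 bp for mRpL2, and −580 and −51 bp for mRpS16. They lay at −124 and −708 bp for mRpS18B and −861 and −504 bp for mRpS6. At mRpL34, mRpL11 (−334 and −306 bp) and mRpS26 (−840 and −838 bp) the summits lay close together.

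**Figure D4:**
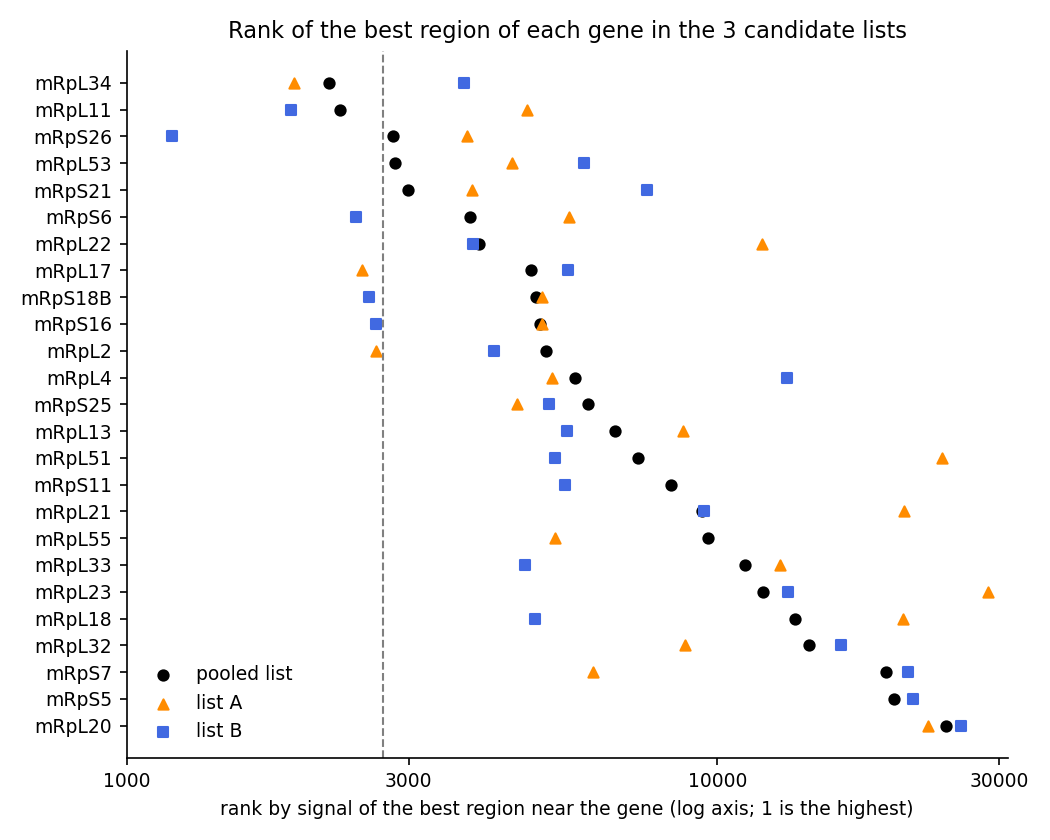
Rank by signal (log axis, 1 is the highest) of the best region near each of the 25 members with a pooled candidate, in the pooled list (black circles), list A (orange triangles) and list B (blue squares); the dashed line is rank 2718. No gene has both its triangle and its square left of the line, and missing symbols mean no region in that list. The best region of a gene can be a different region in each list.

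With candidates of any rank, list A had a region near 44 members (60.3%, 48.1 to 71.5%), against 52.1% of coding genes, and list B near 28 (38.4%, 27.2 to 50.5%), against 44.1%. Of the 25 members with a pooled candidate, 22 had a region in both replicate lists, mRpL55 in list A alone, and mRpS11 and mRpS5 in list B alone. The 22 are 88.0% (68.8 to 97.5%), against 72.5% of coding genes with a pooled candidate (4104 of 5660), which lies inside that interval. Any region within 1000 bp counted, so the regions need not be the same place, as at mRpL18 (−35 bp in list A, −671 bp in list B). Of the 48 members without a pooled candidate, 21 had a region in list A and 4 in list B. The highest of those in list A was at mRpS17 with a signal of 29.8 and rank 3837. No region was listed near 24 of 73 members (32.9%, 22.3 to 44.9%) in any of the 3 candidate lists, against 35.3% of coding genes.

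Members were also divided by origin, with mRpL numbers up to 36 and mRpS numbers up to 21 taken as the part shared with bacterial ribosomes. Of these 42 genes 20 had a pooled candidate (47.6%, 32.0 to 63.6%), and of the 31 mitochondria-specific genes 5 had one (16.1%, 5.45 to 33.7%), namely mRpS26, mRpL53, mRpS25, mRpL51 and mRpL55. The split was 46.4% against 15.8% within the large subunit and 7 of 14 genes against 16.7% within the small one. In list B it was 54.8% against 16.1%, but in list A 61.9% against 58.1%, so the replicate lists did not show it alike. All coding genes stood at 40.5% in the pooled list, 52.1% in list A and 44.1% in list B, and the bacterial-type genes were near the pooled share. The difference was not tested. By subunit, candidates lay near 16 of 47 large-subunit genes (34.0%) and 9 of 26 small-subunit genes (34.6%). By arm, they lay near 5 of 12 members on 2L, 4 of 12 on 2R, 8 of 17 on 3L, 5 of 21 on 3R and 3 of 11 on X, and the interval of each arm included the 40.5% of all coding genes.

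Genes with named roles that had no pooled candidate included mRpL12 and mRpL10, whose bacterial counterparts form the stalk, mRpL3 and mRpL16 of the catalytic subunit core, and mRpS29, also known as death-associated protein 3 in mammals. Small-subunit proteins with other symbols were also without one. These are tko, the mitochondrial protein S12, at 101610 bp from the nearest thresholded summit, and bonsai, the mitochondrial protein S15, at 8557 bp. In the list of translation and transcription factors, peaks lay near ArgRS-m, the mitochondrial arginyl-tRNA synthetase (signal 81.9, at −297 bp), mTTF, a mitochondrial transcription termination factor (75.2, at −36 bp), and mtTFB1, related to ribosomal RNA methyltransferases (90.3, at −967 bp). Candidates below the threshold lay near OXA1L, a membrane insertase (44.1), mIF2, an initiation factor (39.9), and mEFTs, an elongation factor (21.9).

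Promoters were searched on both strands from 250 bp upstream to 50 bp downstream of the most upstream start site, and a match read on both strands at the same bases was counted once. The E-box CAGCTG was found in 40 of 73 member promoters (54.8%, 42.7 to 66.5%), against 17.6% of all coding promoters. It was at 54.3% (36.6 to 71.2%) in the mitochondrial translation list, 23.9% (15.4 to 34.1%) in the oxidative phosphorylation list and 9.68% (4.52 to 17.6%) in the cytosolic ribosomal list. Both subunits held it, with 57.4% of large-subunit promoters and 13 of 26 small-subunit promoters. The 45 matches in member promoters had a median position of 2 from the start site and 23 of them (51.1%) began at or after it, whereas over all coding promoters the median was −51 and 22.3% began at or after the start. The stretches shown for mRpS21, mRpS6, mRpL17, mRpS18B and mRpL2 are of that kind.

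**Figure D5:**
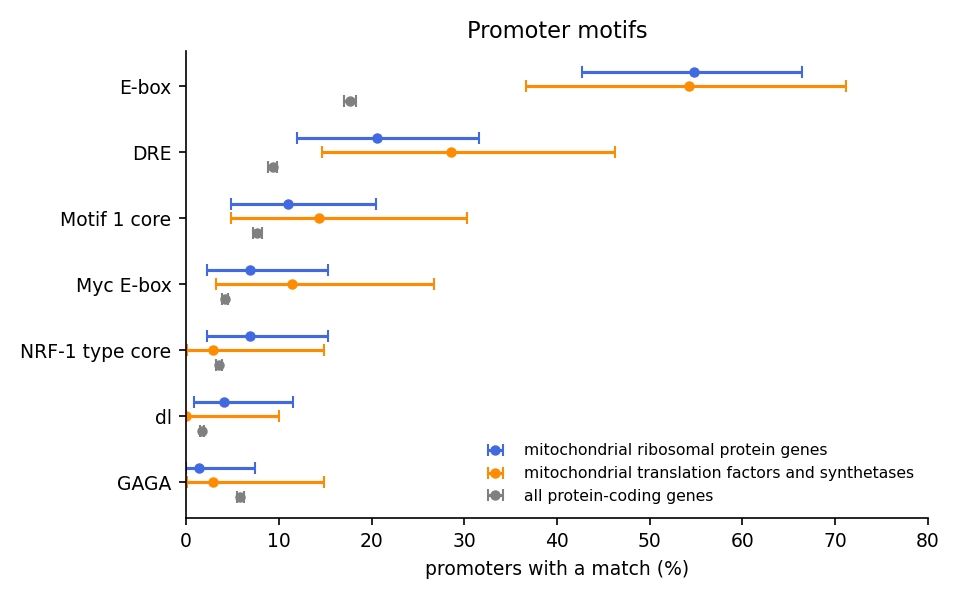
Share of promoters (percent, horizontal axis) with a match to each of 7 motifs in the mitochondrial ribosomal genes (blue, 73), mitochondrial translation factors and synthetases (orange, 35) and all coding genes (grey, 13968); bars are exact 95% intervals. The E-box stands at 54.8%, 54.3% and 17.6%, and GAGA at 1.37%, 2.86% and 5.86%.

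Shares of genes with regions were similar with and without the E-box over all coding genes. Those with it had a candidate at 41.0% and those without it at 40.4%, and it was in 18.7% of promoters of genes with a thresholded peak. Among members it was in 64.0% (42.5 to 82.0%) of promoters with a candidate and in 24 of 48 (35.2 to 64.8%) of those without, intervals that overlap. Of the thresholded peaks on the arms, 14.6% held it. The peak beside mRpL11 had 3 matches and no match to the other motifs, and the one beside mRpL34 had no match to any.

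The letters GAGAGAG, bound by GAGA factor, were found in 1 of 73 member promoters (1.37%, 0.0347 to 7.40%), against 5.86% of all coding promoters, which lies inside that interval. That promoter was of mRpL43, which had no candidate in any list. The same letters were in 44.4% of the 2690 thresholded peaks on the arms. Coding genes with GAGAGAG in the promoter had a thresholded peak at 38.0% (34.7 to 41.4%), and those without at 9.08% (8.59 to 9.58%). The 72 members without it had one at 2.78% (0.338 to 9.68%). Of the motifs searched, the most frequent in the peaks was thus the least frequent in these promoters. GAGAGAG was in 20.7% of promoters of coding genes with a thresholded peak. In the cytosolic ribosomal, mitochondrial translation and oxidative phosphorylation lists it was in 0 of 93, 2.86% and 1.14% of promoters. Those lists had a thresholded peak at 9.68%, 8.57% and 3.41% of genes, in that order. The part of these letters in the low count of members was not tested beyond these shares.

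The DRE, bound by the factor DREF at promoters of growth and replication genes, was found in 15 of 73 member promoters (20.5%, 12.0 to 31.6%), against 9.36% of all coding promoters and 30.1% of cytosolic ribosomal ones. Of its 16 matches 13 (81.25%) lay within 100 bp upstream of the start site, as in the stretches shown for mRpL10 and mRpL22. Over all coding promoters 984 of 1451 matches (67.8%) did, so this placement is common to the motif in general. It was in 0.929% of thresholded peaks. Of the 15 members with it, 7 had a candidate and none a thresholded peak, which allows a share of up to 21.8%. Over all coding genes with the DRE, 38.4% had a candidate and 9.56% a thresholded peak, so the members' counts are near those shares.

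For each of the other motifs the interval of the members included the share of all promoters. Motif 1 (GGTCACAC) was in 11.0% (4.85 to 20.5%) of member promoters against 7.69%. The Myc E-box (CACGTG) was in 6.85% (2.26 to 15.3%) against 4.20%, and the core of the NRF-1 type element (GCGCANGC) in 6.85% (2.26 to 15.3%) against 3.52%. The TATA letters TATAAA were in 46.6% (34.8 to 58.6%) against 45.8%. The dl motif was in 3 promoters, those of mRpS18A, mRpS2 and mRpS18B (4.11%, 0.856 to 11.5%), against 1.72%. Of these only mRpS18B had a pooled candidate, 703 bp upstream. Its match began at −41, and its best region in list A had the summit at −124 bp (signal 25.2, rank 5040). mRpS18A had a region in list B, at 854 bp, and mRpS2 had none in any list. Member promoters had a median GC content of 34.7%, against 38.0% over all coding genes, and its part in these shares was not tested.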

How the data were processed

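The authors deposited region lists in narrowPeak form, and per the deposited description files the thresholded list derives from the candidate lists. The aligner, peak caller, versions and threshold were not given in the sources used here. The signal of each region and its −log10 q-value are the authors' values, as deposited. The files give summits as an offset from the region start. Only the 4 dm6 lists were used, with columns matched to the group and not to a replicate number, so within-replicate statements rest on lists A and B.

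Genes and start sites came from Ensembl release 115 (BDGP 6.54) and sequence from the release 6 assembly. Coordinates are 1-based. A region was given to every gene with a start site within 1000 bp of its summit. Shares carry exact Clopper-Pearson 95% intervals, and the share over all protein-coding genes stands in place of a set test. Assignment was tested on simulated summits. Python 3.11.15, numpy 2.4.6, pandas 2.3.3, scipy 1.17.1 and matplotlib 3.10.9 were used.

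The members and lists were chosen with earlier results of these data known. The genes named are every member with a thresholded peak, the 6 others of highest pooled signal, members within 800 to 1500 bp of a thresholded summit, tko, bonsai and neighbours sharing a peak; further genes were named after their values were seen. Of 30 listed symbols of translation and transcription factors, 20 were found, and 15 synthetases were added. The planned display of peak sequence needed a peak nearest to a member, and there was none. Alternatives were other windows, start sites, overlap, signal limits and single lists.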

Additional observations from a re-analysis of the deposited data

How the results depend on the processing

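Over all combinations of a result and a setting, 37 values stayed within the tolerance and 15 moved past it. The tolerance was 1.5 times for counts, the exact interval for shares, the interval of the median for signal and the range of the peaks for distance. The count of members with a thresholded peak, 2, was 1 with a window of 500 bp, 0 with 250 bp, 5 with 2000 bp, 5 with the best regions of list B, and 0 when only peaks of at least median signal counted or with the nearest start site only. All coding genes stood at 8.81%, 7.52%, 13.1%, 11.3%, 6.35% and 9.46% in these settings. The share of members with a candidate that also had a peak, 8.00%, was 0 with 250 bp, for peaks of at least median signal, and with the nearest start site only, but 18.5% with 2000 bp (all coding genes 26.5%) and 17.9% in list B (25.6%), within its interval. The count with a candidate, 25, was 11 with 250 bp (all coding genes 26.5%) and 44 in list A (52.1%). The median signal of the best candidate, 45.3, was 17.6 in list A and 34.4 in list B, which have scales of their own. The median distance of peaks, 517 bp, was 1224 bp with 2000 bp and 695 bp in list A; it has no value where no peak was left. Restricting to genes with 1 start site was chosen after seeing the data and left 2 members with a peak. Read depth is unknown, so a missing region says only that none was listed.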

Other observations

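The RNA partners of these proteins are encoded on the mitochondrial genome, which held 28 of the thresholded regions, with a median signal of 834. The large ribosomal RNA gene mt:lrRNA (positions 12735 to 14058 of the mitochondrial genome, dm6) held 3 of them, with signals of 164.8 to 2808 and a median of 2553. The small ribosomal RNA gene mt:srRNA (14131 to 14916) held 2, with signals of 401 and 722. All 5 were above the 2 peaks beside nuclear mitochondrial ribosomal protein genes (84.6 and 82.2). The part of mitochondrial DNA copy number in these signals was not tested.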
